A study of Mus musculus with 2 samples.

Results

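Amino acid transporters are membrane proteins of several solute carrier (SLC) families that move amino acids, taurine and betaine across the plasma membrane or the lysosomal membrane. They are described here by the 33 genes chosen by symbol, of 18193 genes named on the array, and by their 81 probe sets, of 45101 on the array. A probe set is a group of short probes against 1 transcript region, and 1 further probe set that names a member together with another gene was left out.

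The study compared livers of mice with and without an injury to the kidneys. All mice were female C57BL/6 wild-type animals, 8 weeks old. The control group had a sham operation, and the other had both renal arteries blocked for 30 min at body temperature and then reopened, labelled acute kidney injury (AKI). The tissue was collected 24 h after the operation, frozen tissue of 3 mice per group (100 mg) went into 1 pool, and 1 Affymetrix array was run per pool. With 1 array per group the spread between mice is unknown, no test can be made, and "higher" and "lower" compare these 2 pools.

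The liver takes up amino acids from portal blood for protein synthesis, glucose production and urea formation. Glutamine is taken up by periportal hepatocytes, and a narrow rim of hepatocytes around the central vein makes it again from glutamate and ammonia. Sodium-driven carriers load the cell. Heteromeric exchangers trade one amino acid for another, and their light chain needs a heavy chain to reach the membrane. Cells also adapt several carrier genes to amino acid shortage and to stress through the transcription factor ATF4.

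The values are signal intensities in arbitrary units, and their medians over all probe sets were 225.8 (sham) and 231.8 (AKI). A difference is AKI minus sham of log2(signal + 71.8), where the added constant, 71.8 (the table's 25th percentile), shrinks the differences of weak signals. The strongest probe set by mean level stands for a gene. A gene passes the level filter when that probe set reaches the array's median of non-control probe sets, 225.7 in sham or 231.8 in AKI. The only repeat measurement is another probe set of the same gene, and the SD of the difference between probe sets of 1 gene was 0.70 over 5149 genes, from 0.90 in the weakest of 4 level classes to 0.66 in the strongest. This SD is a measurement error and holds transcript differences as well, but no variation between mice.

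Of the 33 transporter genes, 31 passed the level filter, while Slc1a3 and Slc7a11 stayed below it on both arrays. Among the 31, 9 were at least 2-fold higher in the AKI pool, against 10.4% of all 13128 genes past the filter, and 4 were at least 2-fold lower, against 12.4%. Their median difference was 0.26, against -0.02 over all genes, and it was -0.071 when the arrays were centred on reference genes. However, 6 of the 31 passed the filter through the AKI array alone and were therefore bound to be higher there, 4 of them by 2-fold or more (Slc1a1, Slc1a4, Slc1a5 and Slc7a5). Over the 25 genes that passed on the sham array, 5 were at least 2-fold higher, against 6.81% of 11924 genes, and 4 lower, against 13.7%. In the same way, Slc6a6 was the 1 gene that passed through the sham array alone. Without any level filter, 9 of all 33 were at least 2-fold higher, against 9.23% of 18193 genes, and 4 lower, against 10.3%. The shares among the transporters are a description, and with so few genes they do not set the family apart.

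**Figure D1:**
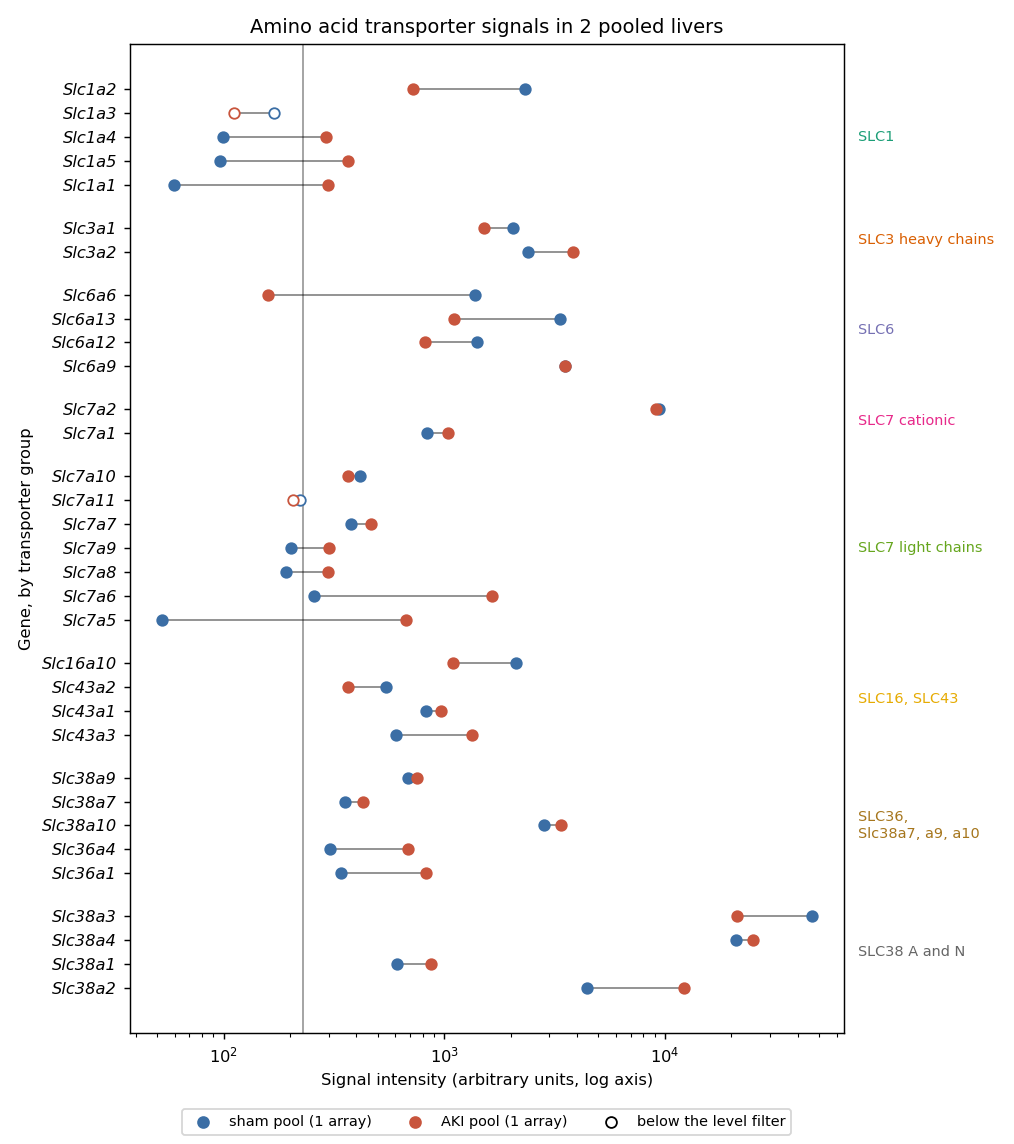
Signal intensity of the probe set standing for each of the 33 transporter genes in the sham pool (blue) and the AKI pool (red), on a log axis, with genes grouped by carrier family and the narrow grey band marking the level filter (225.7 to 231.8). Slc7a5 and Slc7a6 have their red point far to the right of the blue one, Slc6a6 far to the left, and the points of Slc6a9 and Slc7a2 nearly coincide. Open symbols mark Slc1a3 and Slc7a11, and signals of different genes cannot be set against each other.

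The light chains of heteromeric exchangers held the largest positive differences. Slc7a5 encodes LAT1, which exchanges large neutral amino acids such as leucine for intracellular glutamine. Its single probe set, 1418326_at, read 52.6 in sham and 669.3 in AKI, a difference of 2.57, or 2.86 times the SD between probe sets at its level. The sham signal lay below the level filter, so the signal ratio of 12.7 rests on a weak denominator. It is the one member whose difference moved by more than this SD with a pseudocount of 1, to 3.64.

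Slc7a6 encodes the exchanger y+LAT2, which releases arginine in return for glutamine and sodium. Its strongest probe set had signals of 257.2 and 1650.0, a difference of 2.39, or 3.48 times the SD at its level. Another probe set read 238.1 and 488.9, a difference of 0.86, so both were higher in the AKI pool but disagreed on the size, and their mean was 1.62.

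The other light chains differed by less than 2-fold. For Slc7a8 (LAT2) the signals were 192.7 and 297.4, and for Slc7a9, which forms the cystine and dibasic amino acid carrier of kidney and gut, 202.2 and 299.9. Both passed the filter through the AKI array alone. Slc7a7, the y+LAT1 chain that is defective in lysinuric protein intolerance, had a probe set at 0.26 and another at -0.55. Slc7a10, a carrier of small neutral amino acids, was at -0.16. Slc7a11 encodes xCT, which imports cystine for glutathione synthesis, and its probe sets gave 222.1 and 206.7 in the first case and 91.0 and 159.1 in the second, all below the filter.

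Heavy chains carry the light chains to the membrane. Slc3a2, the partner of Slc7a5, Slc7a6, Slc7a7, Slc7a8, Slc7a10 and Slc7a11, had signals of 2400.6 (sham) and 3850.0 (AKI), a difference of 0.67, about as large as the SD of 0.66 between probe sets at that level. Slc3a1, the partner of Slc7a9, had signals of 2044.2 and 1507.2, a difference of -0.42. Each heavy chain has 1 probe set, and neither reached 2-fold.

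Of the sodium-driven carriers of the SLC1 family past the level filter, Slc1a2 was lower and 3 were higher in the AKI pool. Those 3 (Slc1a1, Slc1a4 and Slc1a5) passed through the AKI array alone and were bound to be higher, so no split in direction is shown. Slc1a2 encodes the glutamate transporter GLT-1, which in liver is a gene of the hepatocytes around the central vein. Its strongest probe set had signals of 2315.6 and 719.3, a difference of -1.59, and the next, 1412.7 and 895.1, a difference of -0.62. Its 3 weak probe sets, below the filter, lay between -0.10 and 1.13, and the mean over all 5 was -0.17.

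The remaining SLC1 genes were weak in the sham pool. Slc1a1, the glutamate and cysteine carrier EAAC1, read 59.8 and 297.6 (difference 1.49). For Slc1a5, the glutamine carrier ASCT2, the signals were 96.2 and 366.4 (1.38), and for Slc1a4, the alanine, serine and cysteine carrier ASCT1, 98.9 and 290.6 (1.09). These differences were 1.21 to 1.65 times the SD of 0.90 at that level, which does not distinguish any of the 3 from measurement error. Both other probe sets of Slc1a1 were below the filter and slightly negative, the lower at -0.17, and over all its probe sets the mean was 0.38. The second probe set of Slc1a5 read 0.35. Both other probe sets of Slc1a4, below the filter, were at -0.64 and 0.21, and the mean over its 3 was 0.22, under 2-fold. Slc1a3, the glial glutamate carrier GLAST, had no probe set past the filter among 6.

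The SLC6 carriers of taurine, betaine, GABA and glycine had 3 of 4 genes below 0, as were 6703 of all 13128 genes past the filter. None was at least 2-fold higher, against 10.4% of all genes, and their median was -1.13. With 4 genes, these counts do not set the group apart. Slc6a6 encodes TauT, the taurine transporter, and had the largest negative difference of all members. Probe set 1437149_at read 1375.6 in sham and 159.6 in AKI, a difference of -2.64 or 3.56 times the SD at its level, and 1421346_a_at read 870.3 and 143.5, a difference of -2.13. Probe set 1449751_at went the other way, from 96.8 to 393.1 (1.46), and the last one, below the filter, was at -0.43. The strong pair of probe sets thus agreed on a lower signal in the AKI pool, and the mean over all 4 was -0.94.

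Slc6a13 encodes GAT2, a carrier of GABA, betaine and taurine found in periportal hepatocytes. Its signals were 3333.1 and 1111.3, a difference of -1.53 or 2.33 times the SD, on its single probe set. Slc6a12, the betaine carrier BGT1, read 1405.8 and 815.1 (-0.74), short of 2-fold. Slc6a9, the glycine carrier GlyT1, read 3525.9 and 3529.8 on its strongest probe set and 2626.7 and 1053.1 on the other (-1.26).

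System A and system N carriers of the SLC38 family went in both directions. Slc38a2 encodes SNAT2, the system A carrier of small neutral amino acids that cells increase in amino acid shortage. Probe set 1426722_at read 4440.5 in sham and 12162.3 in AKI, a difference of 1.44 or 2.20 times the SD at its level. The other probe sets of Slc38a2 gave 0.75 and -0.44, and the mean of the 3 was 0.58.

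Slc38a3 encodes SNAT3, the system N carrier through which hepatocytes take up and release glutamine. Its probe sets read 46240.7 and 21332.3 (-1.11) and 1040.6 and 394.5 (-1.25). They agreed on a sham signal more than 2-fold above the AKI signal, although the first difference was -0.82 with centring on hybridization controls. Slc38a4, SNAT4, a system A carrier that marks hepatocytes, was near level, with 20956.7 and 25171.3 (0.26) and a second probe set at 0.29. Slc38a1, SNAT1, was at 0.48.

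Cationic amino acid carriers bring arginine, lysine and ornithine into the cell. Slc7a2, the low-affinity form that is prominent in liver, read 9434.6 and 9127.1 (-0.047), with other probe sets from -0.73 to 0.56. Slc7a1, the widely expressed high-affinity form, read 835.1 and 1041.7 (0.30), and its 3 probe sets spanned 0.081 to 1.19.

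The SLC36 carriers and the remaining SLC38 genes were all above 0, as were 6425 of all 13128 genes past the filter. Their median of 0.25 was -0.090 with centring on reference genes. Slc36a1 (PAT1), which exports small amino acids from lysosomes, read 339.4 and 826.2 (1.13). Slc36a4 (PAT4), a high-affinity carrier of proline and tryptophan, read 303.7 and 685.9 (1.01). Each has 1 probe set, and these differences were 1.52 and 1.36 times the SD at their level. Slc38a7, a lysosomal glutamine and asparagine exporter, was at 0.23 and Slc38a10, a less studied member, at 0.25. The probe set standing for Slc38a9, the lysosomal arginine sensor of mTORC1, was at 0.12.

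Facilitated carriers let aromatic and branched-chain amino acids leave the hepatocyte. Slc16a10 (TAT1), the aromatic amino acid uniporter, read 2112.1 and 1090.3 (-0.91) and, on a further probe set, 1915.0 and 1090.0 (-0.77). These strong probe sets agreed closely and fell just short of the 2-fold threshold. Slc43a1 (LAT3) was at 0.22 and Slc43a2 (LAT4) at -0.50. Slc43a3, which despite its family transports purine nucleobases, read 602.2 and 1332.6 (1.06).

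**Figure D2:**
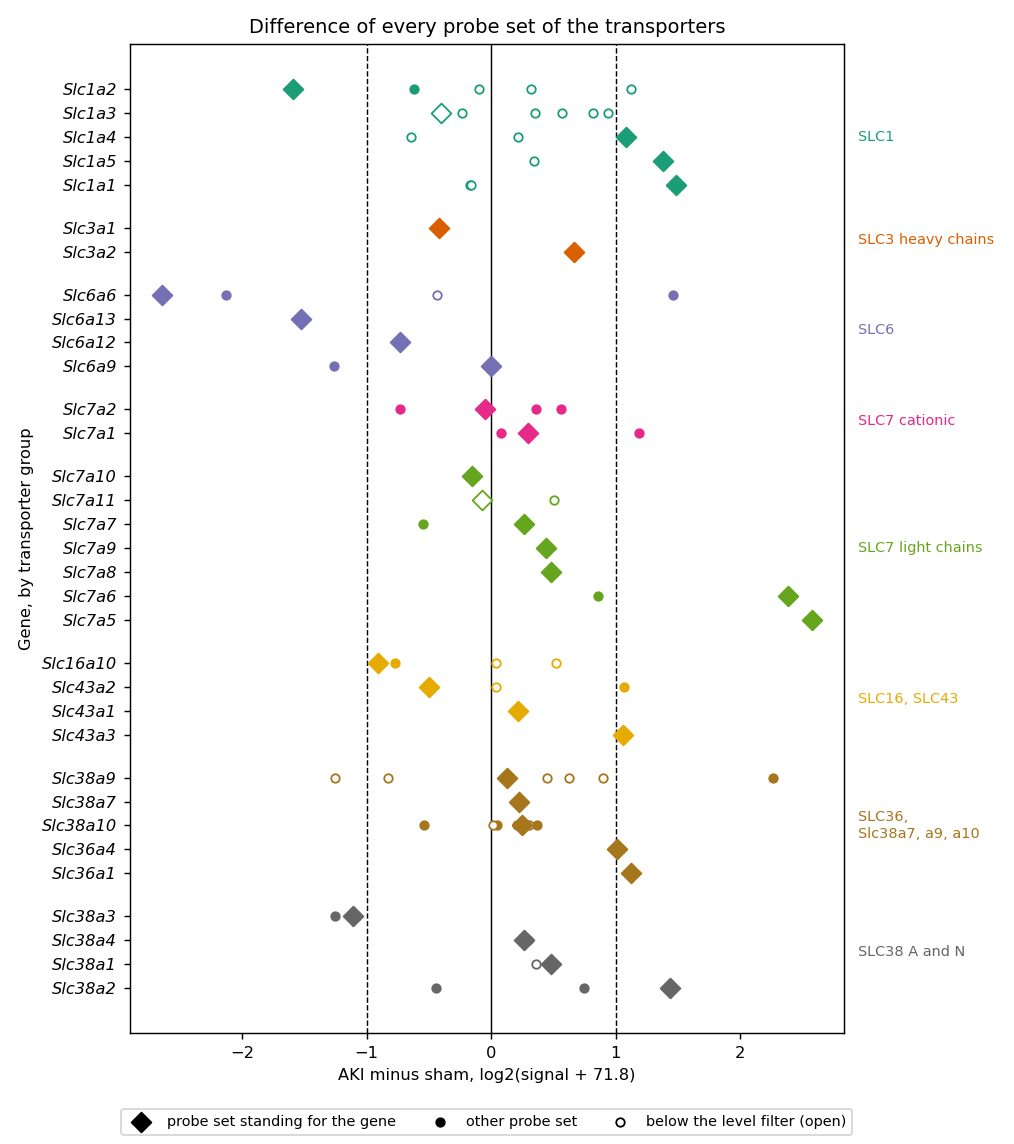
Difference (AKI minus sham, log2 scale) of each of the 81 probe sets, by gene and carrier group, with a diamond for the probe set standing for the gene, circles for the others, open symbols below the level filter and dashed lines at 2-fold. Both probe sets of Slc38a3, Slc7a6 and Slc38a4 lie on the same side of 0, whereas those of Slc6a6 run from -2.64 to 1.46 and those of Slc38a9 from -1.26 to 2.27.

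In 14 genes 2 or more probe sets passed the filter, and 7 of these genes had all of these in the same direction. The same share was not computed over all 5149 such genes, so this count does not set the transporters apart. The pooled SD between member probe sets of 1 gene was 0.96, above the 0.70 of all genes. The 3 members that were at least 2-fold apart under every one of the 11 alternative settings were Slc7a5, Slc7a6 and Slc6a13. Slc7a5 and Slc6a13 have 1 probe set each, so averaging over probe sets could not change them, and the level filter settings change no difference. Slc6a6, Slc1a2 and Slc38a2 fell under 2-fold only with that averaging. All 13 members past 2-fold kept their direction in every alternative that measured them. That was 10 of the 11 for Slc1a1, Slc1a4 and Slc1a5, which do not pass the stricter level filter. The agreement in direction was largely fixed beforehand. Filter and pseudocount settings cannot change a direction, the scalings moved these differences by far less than 2-fold, and averaging cannot change genes with 1 probe set. The same was not counted over all genes. Of the 13, 6 differed by more than 2 times the SD between probe sets at their level (Slc7a5, Slc7a6, Slc38a2, Slc6a6, Slc1a2 and Slc6a13). This was not counted over all genes, so it does not set the transporters apart, and the multiples would be smaller with the SD of 0.96. Slc7a5 and Slc6a6 each passed the filter through 1 array alone, which fixed their direction.

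**Figure D3:**
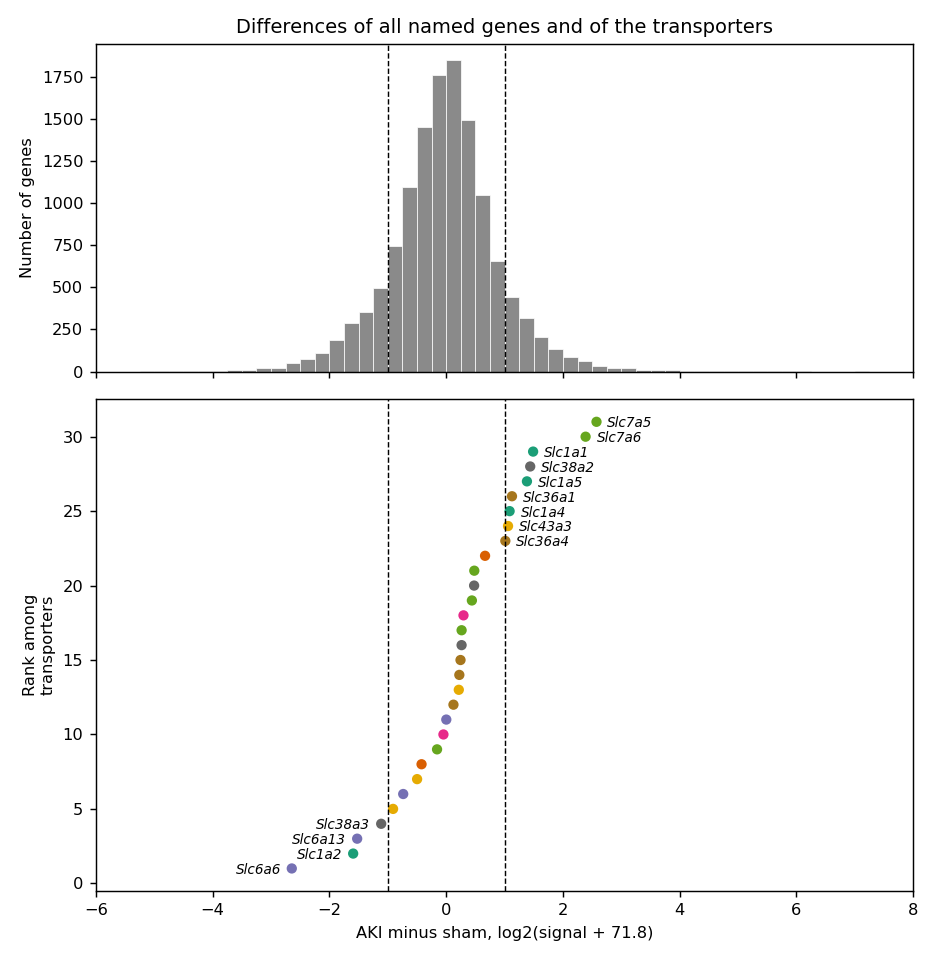
Top, number of named genes past the level filter by difference (AKI minus sham, log2 scale, bins of 0.25). Bottom, the 31 transporters past the filter ranked by difference and coloured by carrier group, with names beside the 13 past the dashed 2-fold lines. Slc7a5 (2.57) and Slc7a6 (2.39) stand at the right and Slc6a6 (-2.64) at the left, all within the range of the other genes.

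Promoter windows were taken from RefSeq (GRCm38.p6) and cover the 250 bases before an annotated transcript start. By symbol, 26 of the 33 members matched, with 44 windows, and Slc1a5, Slc6a6, Slc7a2, Slc7a5, Slc38a1, Slc38a3 and Slc43a3 had no entry. Each window was searched on both strands for 3 motifs that share no letters in the windows printed. TGATGNAA is the core of the element that ATF4 binds in amino acid response genes. The E-box of the lysosomal regulator TFEB is CACGTG, which reads the same on both strands. A site of the TCF/LEF factors of Wnt signalling is CTTTGAT. Among all 32851 windows of this length, 3.45%, 6.02% and 3.21% hold them. A match is a description of letters and not a binding site.

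The windows below are shown for a pair of members that were at least 2-fold higher in the AKI pool (Slc38a2, Slc36a1), for one that was lower (Slc1a2), and for Slc7a11, the textbook gene of the ATF4 element. Capitals mark the motifs. They are Slc38a2 at chr15:96699729-96699978 (minus strand), Slc36a1 at chr11:55204090-55204339 (plus strand), Slc1a2 at chr2:102706188-102706437 (plus strand) and Slc7a11 at chr3:50443614-50443863 (minus strand).
Slc38a2: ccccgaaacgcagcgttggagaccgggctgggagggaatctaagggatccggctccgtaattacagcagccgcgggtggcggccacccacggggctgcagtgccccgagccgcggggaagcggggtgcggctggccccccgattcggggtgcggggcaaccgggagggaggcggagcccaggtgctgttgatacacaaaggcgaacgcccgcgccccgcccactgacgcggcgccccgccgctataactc
Slc36a1: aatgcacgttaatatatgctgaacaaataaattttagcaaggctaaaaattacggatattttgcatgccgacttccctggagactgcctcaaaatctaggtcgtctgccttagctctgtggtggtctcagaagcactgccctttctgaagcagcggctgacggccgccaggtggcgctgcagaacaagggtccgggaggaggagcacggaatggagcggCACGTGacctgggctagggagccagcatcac
Slc1a2: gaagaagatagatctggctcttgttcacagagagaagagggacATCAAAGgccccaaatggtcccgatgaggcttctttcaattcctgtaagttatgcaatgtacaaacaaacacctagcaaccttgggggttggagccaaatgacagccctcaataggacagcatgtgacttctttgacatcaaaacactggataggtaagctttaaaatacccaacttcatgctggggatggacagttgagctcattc
Slc7a11: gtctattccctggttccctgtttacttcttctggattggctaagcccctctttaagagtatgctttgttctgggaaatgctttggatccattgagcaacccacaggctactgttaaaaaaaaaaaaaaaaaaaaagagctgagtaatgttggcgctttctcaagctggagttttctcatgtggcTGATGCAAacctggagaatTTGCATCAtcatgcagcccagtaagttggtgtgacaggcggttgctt

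The ATF4 element was found in 3 of the 44 member windows, against 3.45% of all windows. These belong to 2 of the 26 members, Slc7a7 and Slc7a11. The Slc7a11 window holds it 2 times, 66 and 47 bases before the start and on opposite strands. Neither gene was at least 2-fold apart between the pools. No match was found in the windows of Slc38a2 or Slc7a6. Every window ends at a transcript start, so sequence inside a gene or further upstream was not searched. A window without a match therefore does not show that Slc38a2 or Slc7a6 lacks the element. The E-box was found in 3 of the 44 windows, against 6.02% of all. These were windows of Slc36a1, 31 bases before its start, and of Slc38a7 and Slc43a1. The TCF/LEF letters were found in 4 of the 44 windows, against 3.21% of all, in windows of Slc1a2, Slc7a1, Slc38a9 and Slc38a10.

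Genes of the ATF4 amino acid response were set beside the transporters, because they include the usual regulators of Slc7a5, Slc3a2, Slc7a11 and Slc38a2. Of 28 genes past the filter, 11 were at least 2-fold higher and 2 lower, against 10.4% and 12.4% of all genes. The median was 0.55, or 0.22 with centring on reference genes. Psat1, Atf3 and Eif2ak4 (76.7 in sham) passed the filter through the AKI array alone and were bound to be higher. Over the 25 genes that passed on the sham array, 8 were at least 2-fold higher, against 6.81%, and 2 lower, against 13.7%. Atf4 itself read 3306.4 in sham and 13047.7 in AKI (1.96), with its second probe set at 2.53. Psat1, an enzyme of serine synthesis, read 33.5 and 913.2 (3.23), and the stress factor Atf3 read 203.5 and 2090.2 (2.97). Stbd1, a glycogen-binding protein (-2.54), and the mitochondrial serine enzyme Shmt2 (-1.86) were lower, while the probe sets of Shmt2 spanned -1.86 to -0.20. The list was not uniform, with 20 of the 28 genes above 0 and 8 below. Asns (0.41), Trib3 (0.50) and Aars (-0.63) were among those short of 2-fold.

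The enzymes of cysteine, glutathione and taurine metabolism had the lowest median of the lists beside the transporters, -1.49 over 9 genes, with 7 at least 2-fold lower, against 12.4% of all genes, and 0 higher, against 10.4%. Csad, which makes the precursor of taurine, read 4167.2 and 403.8 (-3.16). Anpep, an aminopeptidase of the bile canaliculus, was at -2.37, Cbs, the first enzyme of cysteine synthesis, at -1.97, and Baat, which joins bile acids to taurine, at -1.96. The remaining 3 lay between -1.49 and -1.04, among them Cdo1 (-1.23), which feeds cysteine into taurine synthesis and is named after its value was seen.

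Glutamine and glutamate enzymes had a median of -0.47 over 11 genes. Of these, 1 was at least 2-fold higher, against 10.4% of all genes, and 3 were lower, against 12.4%. Glul, the glutamine synthetase of the cells around the central vein, read 8511.1 and 20726.0 (1.28), but its second probe set was at -0.27. At least 2-fold lower were the proline oxidase gene Prodh (-1.68), Glud1, glutamate dehydrogenase (-1.36), and the hydroxyproline oxidase gene Prodh2 (-1.02). Glul and Slc1a2, both genes of the central vein region, thus differed in opposite directions on their strongest probe sets.

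Of 24 genes of amino acid sensing at the lysosome, where Slc38a9 and Slc36a1 act, 1 was at least 2-fold higher and 5 lower, against 10.4% and 12.4% of all genes. Tfeb, the lysosomal transcription factor, read 194.9 and 1165.6 (2.21) and passed the filter through the AKI array alone. Lower were Tsc2 (-1.46), Lamtor2 (-1.36), Sesn3 (-1.32), Nprl2 (-1.28) and Flcn (-1.11). Tsc2, Sesn3 and Nprl2 encode restraints of mTORC1, and Lamtor2 a part of its lysosomal scaffold. The median of -0.13 was 0.17 with centring on hybridization controls.

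Genes that handle carriers at the surface went both ways, with 3 of 10 at least 2-fold higher and 4 lower, against 10.4% and 12.4% of all genes. Arrdc4, an arrestin-like adaptor, read 241.2 and 3537.7 (3.53) with another probe set at 2.62, and Arrdc3, its relative, was lower (-1.63). Nedd4l, a ubiquitin ligase that removes carriers and channels from the membrane, was at 2.24 and its relative Nedd4 at -1.37, although the probe sets of Nedd4l spanned -0.064 to 2.24. The kinase genes Sgk1 and Sgk2 were at 1.48 and -1.29, and Bsg, a chaperone of monocarboxylate carriers, was at -1.08. Among 19 further amino acid carrier genes past the filter, of 30 named on the array, 0 were higher by 2-fold or more, against 10.4% of all genes, and 2 were at least 2-fold lower, against 12.4%. These were Slc17a6 (-1.58), a vesicular glutamate carrier of neurons, and the lysosomal histidine carrier Slc15a4 (-1.40). Their median was -0.12, or 0.18 with centring on hybridization controls.

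**Figure D4:**
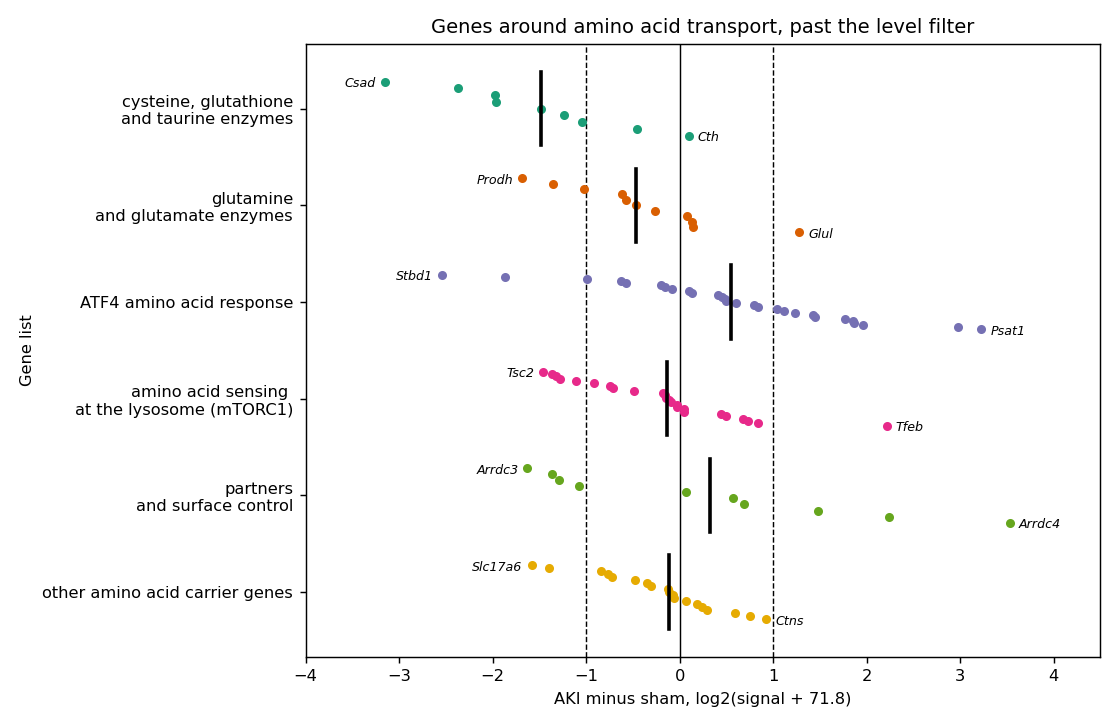
Difference (AKI minus sham, log2 scale) of single genes past the level filter in 6 lists around amino acid transport, with a black bar at each list's median, dashed lines at 2-fold and names at the lowest and highest gene. The cysteine, glutathione and taurine list lies mostly left of the lower dashed line (median -1.49) and the ATF4 list mostly right of 0 (median 0.55).

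The pools carried the markers of liver. All 8 hepatocyte markers passed the filter, and none differed by 2-fold, with a summed signal of 689903.8 (sham) and 620908.2 (AKI). Of 7 neutrophil markers past the filter 2 were at least 2-fold higher, S100a8 (3.17) and S100a9 (2.72), against 10.4% of all genes. The others past it lay between -0.03 (Mpo) and 0.76 (Elane), and Camp and Cxcr2 were below the filter. Of the 4 that passed on the sham array, 0 were at least 2-fold higher, against 6.81%. The sum over 9 went from 2971.6 to 6752.8, mostly through S100a8 and S100a9. The 8 Kupffer cell markers summed to 12852.2 and 8189.7, with Clec4f (-1.37) and Cd5l (-1.24) lower and Marco (1.46) higher. S100a8, S100a9, Elane and Marco passed the filter through the AKI array alone. Of 5 T cell markers Cd3e, Cd3d, Cd3g and Cd4 were below the filter, and Cd8a was at 0.82. The summed signals of 6 endothelial markers were 7636.7 and 5745.9, with Clec4g (-2.08) lower and Lyve1 (1.79) higher. Of 4 cholangiocyte markers the sum went from 1112.0 to 2799.8, mostly with Sox9, which read 229.2 and 1729.9 (2.58). Epcam was at 0.40, and Krt19 (0.23) and Krt7 (-0.77) were below the filter. Of 5 stellate cell markers past the filter 4 were below 0, with Lrat (-1.74) at least 2-fold lower and none at least 2-fold higher. The sum over 6 went from 11686.3 to 17979.7 through Dcn, which read 7724.9 and 14722.2 (0.92). None of the B cell (3), erythroid (2), pancreas acinar (2) and kidney tubule (4) markers past the filter differed by 2-fold. Of 11 reference genes Ywhaz (1.20) was at least 2-fold higher and none lower, with a median of 0.33. The part of these markers' cells in the transporter differences was not tested. In a pooled tissue, fewer cells of a type and less RNA per cell cannot be told apart.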

How the data were processed

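The authors deposited 1 table for 2 Affymetrix arrays, with linear signal intensity per probe set between 0.6 and 127786.6. The software, version and genome build behind it are not given in the sources used here. With 2% of probe sets trimmed at each end, the mean signal was 500.00 on both arrays, so the deposited values had been scaled to 1 target, which removes any difference in total mRNA. Per the labels, each array holds total RNA of 1 pool of 3 livers.

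Genes were named through the platform annotation: of 45037 non-control probe sets 34945 had 1 symbol, 932 several and 9160 none. The members and lists were chosen with earlier results of these data known. Every member is accounted for. Of each other list, up to 4 genes with the largest difference past 2-fold are named, or all where there were 5 or fewer, and motifs and windows were chosen after values were seen. Alternatives covered scaling (median, quantile, lowess with fraction 0.3, reference genes), the level filter (none, 75th percentile), the pseudocount (1, or the table median 228.7), averaging all probe sets of a gene, and leaving out probe sets with suffix _s_at, _x_at or _a_at. Centring on 18 hybridization control probe sets, for transcripts spiked in, was added after seeing the data. The computation was tested on simulated data. Software was Python 3.11.15, statsmodels 0.14.6, pandas 2.3.3, numpy 2.4.6, matplotlib 3.10.9 and scipy 1.17.1.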

Additional observations from a re-analysis of the deposited data

How the results depend on the processing

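The count of transporters at least 2-fold higher (9) was 5 with centring on reference genes, 3 with a pseudocount at the table median and 5 with the average over all probe sets of a gene, and 6 to 9 under the other 8 alternatives. The share of all genes that were higher, 10.4% as reported, moved as well. In the same order it was 6.3%, 6.4% and 7.7%, and 9.2% to 16.8% under the other 8. The count at least 2-fold lower (4) was 2 with the average over all probe sets of a gene and 3 to 6 otherwise. Of all genes, 12.4% were lower as reported, 9.7% with that average and 8.1% to 20.6% otherwise. Their median (0.26) was -0.071 with centring on reference genes and 0.56 with centring on hybridization controls, because these shift every gene: the median of all genes was -0.36 and 0.28, against -0.02. Higher genes made up 69.2% of the transporters past 2-fold, 45.5% with reference genes and 42.9% with the larger pseudocount, and 75% with hybridization controls. Over all genes the share was 45.6%, 23.3%, 44.2% and 67.5%. Of the 9 higher transporters, 4 passed the filter through the AKI array alone and were bound to be higher there. Among genes that passed on the sham array, 5 transporters were at least 2-fold higher and 4 lower, against 812 and 1634 of all genes. The number of arrays, 1 per group, limits every value, and signals near or under the filter limit Slc1a1, Slc1a4, Slc1a5 and Slc7a5, and also Slc6a6 (159.6 in AKI) and Slc7a6 (257.2 in sham).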

Other observations

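Several transporters have probe sets past the level filter that disagree by more than the SD between probe sets, and transcript forms or probe quality were not tested. For Slc38a9, probe set 1454283_at read 110.5 in sham and 804.9 in AKI (2.27), while the stronger 1456338_at read 684.8 and 752.9 (0.12). For Slc6a9, 1417636_at was level (0.0016) and 1431812_a_at lower (-1.26). The probe sets of Slc43a2 read 545.1 and 364.9 (-0.50) and 78.7 and 242.9 (1.06). For Slc7a1, 1454992_at read 294.6 and 761.5 (1.19), against 0.30 and 0.081 on the others.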
